A study of Gallus gallus with 10 samples.

Results

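The HOX cluster genes were taken as all probe sets of the Affymetrix chicken array whose gene symbol in the platform annotation begins with HOXA, HOXB, HOXC or HOXD and a number, which gave 62 of 38439 probe sets. Of these, 59 are of 1 HOX gene each and stand for 29 genes (of 13009 gene symbols on the array), 2 are of HOXA10-AS, an RNA transcribed from the opposite strand at HOXA10, and 1 is shared by HOXD10 and HOXD8. The chicken RefSeq annotation (assembly GRCg7b) lists 35 HOX genes in the 4 clusters, of which 29 have a probe set under their symbol.

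The arrays come from the chick preplacodal region, the band of ectoderm around the anterior neural plate from which the cranial sense organs and ganglia arise. Anterior placode progenitors (aPPs, future lens and olfactory cells) and posterior placode progenitors (pPPs, future inner ear and epibranchial cells) were dissected by hand from embryos labelled HH5-7 in one field and HH6 in another, and were used at once (3 arrays each) or after 5 hr culture in collagen without other tissue (2 arrays each). The comparison was designed to find genes that follow the lens regulator Pax6, which pPPs switch on in isolation. No strain or sex is given, the sources used here state no number of embryos per sample, and there are no uncultured arrays of the later age, so culture and added age cannot be told apart. Nothing states that the numbered sets are separate dissections, so the p-values measure the spread between these samples, which may be technical. In such dissected tissue, fewer cells that express a gene and less RNA of it per cell cannot be told apart.

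HOX genes encode homeodomain transcription factors that give cells their position along the head-to-tail axis. They lie in clusters in which the order of the genes, numbered by paralogous group, follows the order in which they are switched on and how far forward they are expressed. Low-numbered genes come on first, during gastrulation, and reach furthest forward, up to hindbrain levels, whereas the forebrain and the most anterior head ectoderm are known as HOX-free territory. Retinoic acid, WNT and FGF signals and the CDX proteins are known activators of HOX genes, and proteins of the TALE class (PBX, MEIS and PKNOX) bind DNA together with HOX proteins.

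Most HOX genes were not detectable on these arrays in any of the groups. MAS5, the software that gave the signals, also called each probe set Present, Marginal or Absent on each array, according to whether its matching probes were brighter than their mismatched partners. Calls could be used for 8 arrays (3 of aPPs, 3 of pPPs and 1 of each cultured group). Those of cultured aPPs are labelled as a re-scan, unlike the others. Of the 62 HOX probe sets, 48 had no Present call on any of the 8, and 10 of the remaining 14 had a single one. In total, 23 of 496 HOX calls were Present (4.64%) and 5 were Marginal.

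For comparison, 62.3% of 151 probe sets of other homeobox genes and 65.2% of all probe sets had a Present call on at least 1 array, against 22.6% of the HOX probe sets. The array also carries 689 probe sets described as viral, for which these embryos need hold no target, and 11% of them had a Present call. By single array, 0.00% to 6.45% of HOX probe sets were Present, as were 0.726% to 2.90% of viral, 31.8% to 44.4% of other homeobox and 44.7% to 50.2% of all probe sets. The HOX share was thus above the viral share on 7 of 8 arrays and below the other homeobox share on all 8. The other homeobox genes were gathered by symbol after the data had been seen, and the shares are a description.

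**Figure D1:**
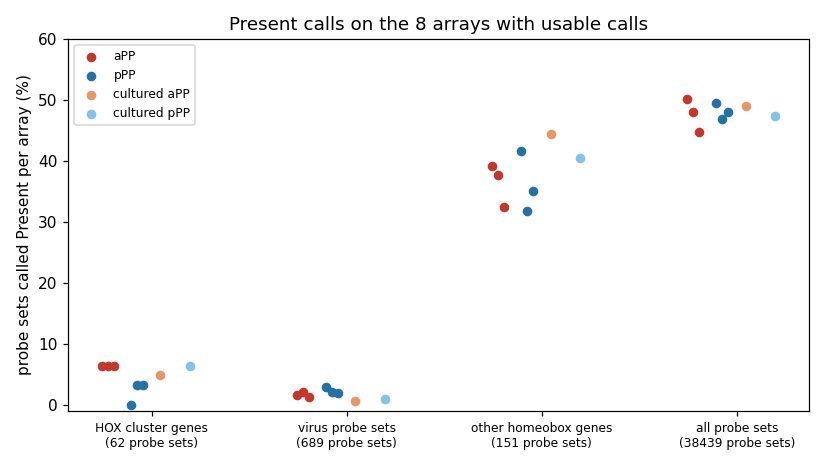
Percent of probe sets called Present on each of the 8 arrays with usable calls, for HOX cluster genes, viral probe sets, other homeobox genes and all probe sets; each point is 1 array, coloured by group. HOX points lie between 0.00% and 6.45%, near the viral probe sets and below the other homeobox genes (31.8% to 44.4%).

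The signals gave the same picture. After quantile normalization, which puts the median of all probe sets at 10.1 to 10.2 arbitrary units on each array, the median HOX probe set lay between 1.41 and 3.27. Of 620 HOX signals (62 probe sets on 10 arrays), 28 were above the median of their array (4.52%). The mean over the 10 arrays exceeded it for 1 HOX probe set, of HOXA3. Apart from that one, the highest signal of any HOX probe set on any array was 18.3, for HOXA10-AS. Signals of this size are close to the offset of 16 that was added before log2 values were taken, and differences between them are correspondingly compressed.

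**Figure D2:**
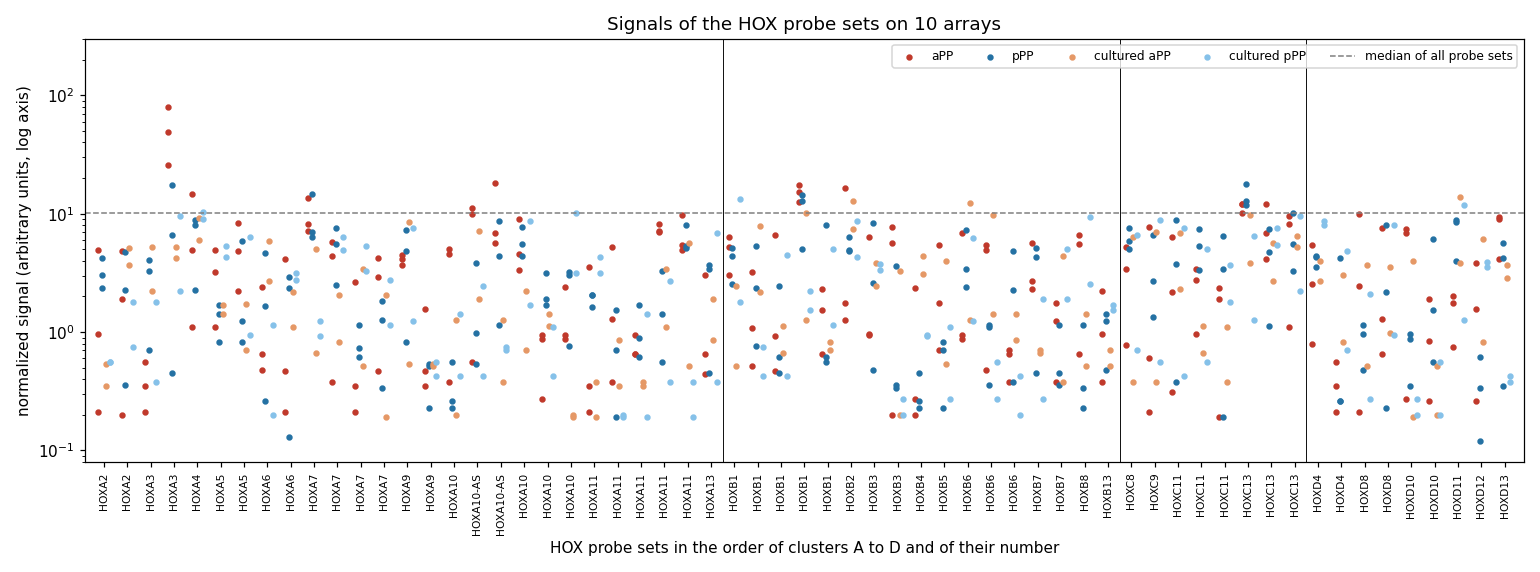
Normalized signal (arbitrary units, log axis) of the HOX probe sets of single genes, ordered by cluster (vertical lines separate A, B, C and D) and by number; each point is 1 of the 10 arrays, coloured by group, and the dashed line is the median of all probe sets. Most points lie below the line, and 1 probe set of HOXA3 reaches 79.3 in aPPs.

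The Present calls were scattered over the 4 clusters and over groups. In cluster A, 3 of 25 single-gene probe sets had a Present call, in cluster B 4 of 17, in cluster C 4 of 8 and in cluster D 2 of 9. By position, the 3′ genes of paralogous groups 1 to 4, the earliest and most anterior in the embryo, had Present calls for 6 of 8 genes and in 11 of 128 calls (8.59%). The middle groups 5 to 8 had them for 1 of 9 genes and in 1 of 144 calls (0.694%), and the 5′ groups 9 to 13, which act in the tail and limbs, for 3 of 12 genes and in 9 of 200 calls (4.50%). Of these 9 calls, 7 were of the 3 probe sets of HOXC13, and of the 11 calls in groups 1 to 4, 5 were of 1 probe set of HOXA3. The median of the mean signals was 2.51, 2.47 and 2.50 in the 3 classes.

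The 19 genes with no Present call were HOXA2, HOXA5, HOXA7, HOXA9, HOXA10, HOXA11 and HOXA13 in cluster A, HOXB4, HOXB5, HOXB6, HOXB7, HOXB8 and HOXB13 in cluster B, HOXC8 and HOXC9 in cluster C, and HOXD8, HOXD10, HOXD11 and HOXD12 in cluster D. All probe sets without a Present call had mean signals of 0.573 to 6.48. The highest single value among them was 14.7, on an array of HOXA7.

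Per group, 4 HOX probe sets were Present on each of the 3 aPP arrays, and 0, 2 and 2 on the pPP arrays. The single array with usable calls had 3 for cultured aPPs and 4 for cultured pPPs. The median HOX signal of the groups differed little, at 2.91 in aPPs, 2.66 in pPPs, 2.17 in cultured aPPs and 2.77 in cultured pPPs.

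By the platform annotation, HOXA3, which patterns pharyngeal arches and hindbrain in mouse, was the one HOX gene with a clear signal, through 1 of its 2 probe sets (S2). Its signals in the 3 aPP arrays were 26.0, 79.3 and 49.1 (mean 51.5 ± 26.7, SD), and it was Present on all 3. In pPPs they were 6.55, 0.450 and 17.6 (8.21 ± 8.71), with 1 Present call in 3. Cultured aPPs gave 4.26 and 5.22, Absent on the array with a usable call, and cultured pPPs 9.50 and 2.24, Present on the array with a usable call. Every aPP array was above every other array, with the lowest at 26.0 and the highest pPP array at 17.6.

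Differences between groups were tested with limma over the 21591 probe sets that were Present on at least 2 of 8 arrays. This filter kept 4 of the 62 HOX probe sets, 1 of HOXA3, 2 of HOXC13 and 1 of HOXA10-AS. The probe set of HOXA10-AS passed it through aPP arrays alone. Since each cultured group had calls from 1 array, a probe set Present in 1 cultured group only could not pass the filter. In aPPs against pPPs, 1 of these 4 passed an adjusted p of 0.05, where 1.89% of all tested probe sets passed. This was HOXA3, higher in aPPs by 1.46 on the scale of log2(signal + 16) (SE 0.28, 2.75-fold on that scale, adjusted p = 0.0108 by limma with Benjamini-Hochberg adjustment). An exact two-sided permutation test on the 3 and 3 signals gave p = 0.1, the smallest value that 20 splits allow.

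The same probe set was lower after 5 hr culture of aPPs. Of the 4 HOX probe sets, 1 passed in cultured aPPs against aPPs, where 3.71% of all did. HOXA3 fell by 1.62 (SE 0.31, adjusted p = 0.00838), or 3.08-fold on the offset scale, whose size depends on the offset. Both HOXA3 results rest on the same 3 aPP arrays and are not independent of each other. In cultured pPPs against pPPs, 0 of 4 passed where 3.93% of all did, and HOXA3 differed by -0.10 (SE 0.31, adjusted p = 0.902). In cultured aPPs against cultured pPPs, 0 of 4 passed where 0.232% of all did, with HOXA3 at -0.06 (SE 0.34, adjusted p = 0.973). The culture responses of pPPs and aPPs differed by 1.52 for HOXA3 (SE 0.44, adjusted p = 0.414), and 0 of 4 passed that test where 0.0139% of all did. At an unadjusted p under 0.05 there were 1, 0 and 1 of the 4 in these 3 comparisons, where 18.1%, 9.10% and 6.18% of all lay.

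The HOXA3 calls were not firm. The aPP against pPP difference ended at adjusted p = 0.0521 without aPP set 2, the brightest array, and at 0.0781 without pPP set 2, the dimmest. The fall in culture ended at 0.110 without cultured aPP set 1 and at 0.0934 without cultured aPP set 2, which each leave 1 cultured aPP array whose spread is taken from the other groups. With an offset of 1 in place of 16, the adjusted p values were 0.0664 and 0.0665 and the differences 3.02 and -3.06.

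The probe sets of HOXA3 disagreed. The other one (S1) was Absent on all arrays with calls, with signals of 0.350, 0.560 and 0.210 in aPPs, 4.08, 0.710 and 3.27 in pPPs, 2.23 and 5.22 in cultured aPPs, and 0.380 and 1.78 in cultured pPPs. Its group mean was lowest in aPPs, at 0.373, but arrays overlapped, with 0.560 in aPP set 2 and 0.380 in cultured pPP set 1. At such dim signals no direction can be read from it. The text supplied with the array calls the bright probe set HOXD-3, while its gene number is that of HOXA3 both in the platform annotation and in RefSeq. No probe set carries the symbol HOXD3, and whether the bright one measures HOXA3 or HOXD3 was not tested. In RefSeq the HOXA3 gene lies between HOXA2 and HOXA4, and its span overlaps those of HOXA4, HOXA5 and HOXA6, none of which had more than 1 Present call on any probe set.

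**Figure D3:**
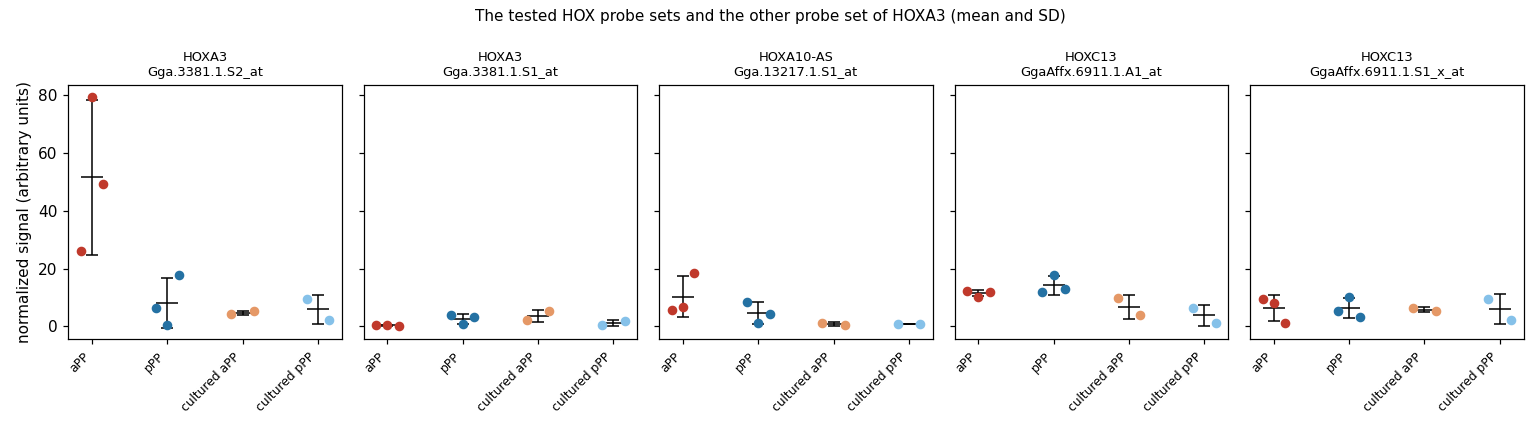
Normalized signal (arbitrary units) of the 4 tested HOX probe sets and of the second probe set of HOXA3, by group; points are arrays and bars are the mean and SD. Only the first HOXA3 panel has points above 20, the 3 aPP arrays at 26.0, 49.1 and 79.3.

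Markers of other tissues differed between the same groups, and their part in the HOXA3 result was not tested. Of 10 endoderm markers tested, 2 passed as higher in aPPs and none as lower, where 1.89% of all tested probe sets passed in either direction. SOX17, a regulator of endoderm, read 98.6, 11.9 and 173 in aPP sets 1 to 3 and at most 6.35 in pPPs. It passed at an adjusted p of 0.0181 by limma, with 3 Present calls. HHEX, a marker of anterior endoderm, read 926, 222 and 1391 against 162 to 188 and passed narrowly (adjusted p = 0.0480). The calls of SOX17 and HHEX were not followed over the alternatives. In the same sets HOXA3 read 26.0, 79.3 and 49.1, and its relation to these markers across arrays was not tested. The summed endoderm signal was 1633 to 3491 in aPPs, 1591 to 1776 in pPPs, 1189 to 1620 in cultured aPPs and 895 to 1137 in cultured pPPs, and FOXA1 and NODAL had no Present call. Of the 10, OTX2 is also an anterior marker, and it made up most of the sum on every array of pPPs and of both cultured groups. OTX2 read 915 to 1297 in aPPs, 1258 to 1452 in pPPs, 936 and 843 in cultured aPPs and 785 and 547 in cultured pPPs. On aPP set 2, which had the lowest aPP sum of 1633, OTX2 alone read 1235. In those groups and on that array the sum is thus not a measure of endoderm. On aPP sets 1 and 3 it also holds OTX2, at 1297 and 915.

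Of 9 mesoderm markers tested, 1 passed as higher in aPPs and 1 as lower, where 1.89% of all tested probe sets passed. FOXC2, expressed in head mesoderm, was higher (1037 to 1196 against 160 to 435). TBXT, the gene of the primitive streak and notochord, was lower (13.1 to 23.9 against 40.8 to 47.4). FOXC2 read 1908 and 1708 in cultured aPPs, a rise of 0.66 that did not pass (adjusted p = 0.229 by limma). In pPP culture it rose by 1.57 (adjusted p = 0.00429), the 1 of 9 that passed there, where 3.93% of all did. The relation of FOXC2 to HOXA3 was not tested. The summed mesoderm signal was 1149 to 1382 in aPPs, 302 to 662 in pPPs, 1818 to 2201 in cultured aPPs and 957 to 1281 in cultured pPPs, and TBX6, TBX1, FOXF1, MEOX2 and TWIST2 had no Present call. FOXC2, which read 746 and 1037 in cultured pPPs, made up most of this sum on every array. The sum thus mainly repeats FOXC2 and does not show a shift of the mesoderm markers as a set.

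Of 12 preplacodal markers listed, 9 were tested. EYA2, DLX5, DLX6, TFAP2A, TFAP2C and IRX1 were Present on all 8 arrays, GATA3 on 7, DLX3 on 5 and EYA1 on 3, and GATA2 had no Present call. Their summed signal was 4388 to 5088 in aPPs and 2552 to 3949 in pPPs. DLX5 made up most of this sum on each of these arrays, at 2752 to 2917 in aPPs and 1622 to 2419 in pPPs. Its difference did not pass (0.44, adjusted p = 0.0836), and the sum thus mainly repeats DLX5. GATA3 was higher in aPPs (1.39, adjusted p = 0.0284), and TFAP2C rose in culture of aPPs (1.18, adjusted p = 0.0109) and of pPPs (1.10, adjusted p = 0.0165).

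In the uncultured arrays, the markers of anterior and posterior position followed the labels only in part. GBX2, a posterior marker of this ectoderm, was lower in aPPs, but the anterior markers OTX2 (-0.28, adjusted p = 0.607), SIX3 (-0.35, adjusted p = 0.791) and HESX1 (-0.14, adjusted p = 0.921) did not pass as higher there. PAX6 read 103, 44.1 and 46.2 in aPPs and 35.8, 16.4 and 27.3 in pPPs, a difference of 0.87 (adjusted p = 0.156) that did not pass. SP8 was lower in aPPs by 3.01 (adjusted p = 7.77e-08). After culture, SIX3 was higher in cultured aPPs than in cultured pPPs (1.74, adjusted p = 0.0313). OTX2 (0.43, adjusted p = 0.506) and HESX1 (0.67, adjusted p = 0.368) did not pass there. PAX6 rose in culture of aPPs (2.30, adjusted p = 0.000596) and of pPPs (2.13, adjusted p = 0.00120).

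Of 10 neural plate markers tested, 2 passed as lower in aPPs than in pPPs and 0 as higher, where 1.89% of all passed. These were ZEB2, by 2.95 (adjusted p = 0.000242), and NKX6-2. The median difference of the 10 was -0.16, against -0.02 for all tested probe sets. CDH2 (0.64) and DBX2 (0.38) lay in the other direction and did not pass, nor did SOX3 (-0.09) and SOX1 (-0.20). In either culture 0 passed by limma. At an unadjusted p under 0.05 there were 4 of 10 in aPP culture and 5 in pPP culture, where 16.7% and 18.1% of all tested probe sets lay. Of 11 neural crest markers, 1 was higher in aPPs, MSX2, and 3 were lower, TFAP2B, PAX7 and DRAXIN, where 1.89% of all passed. In aPP culture 3 of the 11 rose and in pPP culture 6, with TFAP2B rising in both. Of all tested probe sets, 3.71% and 3.93% passed there. The summed neural crest signal was 377 to 457 in aPPs, 548 to 587 in pPPs, 759 to 794 in cultured aPPs and 1333 to 1819 in cultured pPPs. Of 4 blood and endothelium markers tested, 0 passed by limma in these 3 comparisons. At an unadjusted p under 0.05 there were 2, 1 and 1, where 10.1%, 16.7% and 18.1% of all lay. The part of these markers in the HOXA3 result was not tested.

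HOXA10-AS had the next highest single signal. It was Present on 2 of 3 aPP arrays, with signals of 5.70, 6.83 and 18.3 in aPPs, 8.62, 1.14 and 4.42 in pPPs, and 0.380 to 1.27 in the 4 cultured arrays. The difference in cultured aPPs was -0.61 (SE 0.21, adjusted p = 0.127) and did not pass. Since the aPP calls alone brought this probe set into the test, the lower cultured values are a description. Its second probe set was Absent throughout, and HOXA10 itself had no Present call.

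HOXC13, known in mammals for its part in hair and nails, had 2 tested probe sets. The first read 12.2, 10.2 and 12 in aPPs and 11.8, 17.9 and 12.9 in pPPs, and 9.68 and 3.82 in cultured aPPs and 6.49 and 1.27 in cultured pPPs. Cultured arrays were thus below all uncultured ones, with differences of -0.28 in aPPs (SE 0.19, adjusted p = 0.486) and -0.61 in pPPs (SE 0.19, adjusted p = 0.0844). The second probe set, which can also bind related transcripts, differed by -0.01 between aPPs and pPPs, by -0.01 in aPP culture and by -0.03 in pPP culture. Another, Present on 1 aPP array, read 6.81, 4.16 and 12.1 in aPPs and 7.59 and 5.42 in cultured pPPs, so the low cultured values were seen in 1 of 3 probe sets of HOXC13.

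The probe sets of the other HOX genes had at most 1 Present call each, and none was tested. Among the anterior genes, HOXB1, which specifies a hindbrain segment in mouse, read 17.6, 15.3 and 12.6 in aPPs, 12.7, 14.3 and 5.00 in pPPs, 10.1 and 1.27 in cultured aPPs and 1.54 and 2.24 in cultured pPPs on a probe set that can also bind related transcripts. A second HOXB1 probe set was Present in cultured pPPs, at 13.4 on that array and 1.78 on the other. The other 3 of its 5 probe sets had no Present call.

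HOXB2, also a hindbrain gene, was Present in cultured aPPs, where it read 12.9 and 7.45, but its highest value was 16.5 on an aPP array whose other 2 read 1.27 and 1.77. HOXB3 was Present on 1 pPP array and stayed at or below 8.33 throughout. HOXA4 was Present on 1 aPP array, and its aPP values of 1.10, 14.6 and 4.95 spanned those of every other group. HOXD4 read 8.75 and 8.04 in cultured pPPs, above 4.40, 3.53 and 4.32 in pPPs and above all aPP and cultured aPP values, with 1 Present call, in cultured pPPs. Its second probe set, with no Present call, did not show this, at 4.81 and 0.700 in cultured pPPs and 0.260, 0.260 and 4.21 in pPPs.

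Among the remaining genes, HOXA6 was Present on the cultured aPP array, where it read 5.83, and HOXC11 on the cultured pPP array, at 7.59 with 0.430 on the other. HOXD13, a gene of digits and hindgut, was Present on 1 aPP array, with 9.39, 4.16 and 9.01 in aPPs, 4.21, 0.350 and 5.61 in pPPs and 0.380 and 0.430 in cultured pPPs. These ranges overlapped between aPPs and pPPs.

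Testing all 62 HOX probe sets with no filter on calls added none to those that passed. At an unadjusted p under 0.05, 4 HOX probe sets (6.45%) differed between aPPs and pPPs against 7.81% of all probe sets. In cultured aPPs against aPPs there were 8 (12.9%) against 12.3%, in cultured pPPs against pPPs 8 (12.9%) against 13%, and in cultured aPPs against cultured pPPs 5 (8.06%) against 7.38%. The HOX shares were thus near those of the array as a whole. Of the 62 differences, 32 were positive in aPPs against pPPs, and the 61 other than that of HOXA3 lay between -0.40 and 0.41.

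Genes around the HOX clusters and genes that act with HOX proteins were, in contrast, often detected on the probe set used. That was the tested one with the highest mean signal, which favours detection, whereas every HOX probe set was counted. Of 31 genes listed as neighbours of the clusters, 21 had a probe set and 16 were tested. Among all single probe sets, 65.2% had a Present call and 56.2% were tested. CBX3 and HNRNPA2B1, beside cluster A, had mean signals in aPPs of 1140 and 1256, MTX2, beside cluster D, 901, and CBX1, near cluster B, 1897. EVX1 and EVX2, homeobox genes at the 5′ ends of clusters A and D, had no Present call on the probe set used. Of the 16, 0 passed in aPPs against pPPs by limma, where 1.89% of all did, and 2 had an unadjusted p under 0.05, where 10.1% of all did. NFE2L1, which encodes a stress-response factor, rose in culture of aPPs by 0.49 (adjusted p = 0.0305) and of pPPs by 0.65 (adjusted p = 0.00569), and SNX10, of endosome sorting, rose in pPP culture by 1.09 (adjusted p = 0.0227). The first call ended in 8 of 16 alternatives, among them without aPP set 1 or 2 or either cultured aPP array (0.0560 to 0.284), the second without cultured pPP set 1 (0.0654), and that of SNX10 without pPP set 1 or 3 or cultured pPP set 1 (0.0508 to 0.244). Without normalization each of these calls ended as well. The median difference of the 16 was 0.05 in aPPs against pPPs, with -0.02 for all tested probe sets.

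All 6 TALE genes with a probe set were tested, of 9 listed. PBX3 read 79.0, 50.9 and 87.6 in aPPs and 134, 158 and 136 in pPPs, lower in aPPs by 0.87 (SE 0.19, adjusted p = 0.0264). This call ended in 6 of 17 alternatives, among them no normalization and the loss of aPP set 2 or any 1 pPP array (0.0592 to 0.158 for these losses). None of the 6 passed by limma in the other comparisons. At an unadjusted p under 0.05 there were 0 to 2 in each, where 6.18% to 18.1% of all lay. PBX3, PBX4, MEIS2 and PKNOX1 were Present on all 8 arrays and MEIS1 and PKNOX2 on 4 each. Transcripts of HOX partners were therefore measured in groups where HOX transcripts mostly were not.

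Of 17 listed activators of HOX genes, 10 had a probe set and 5 were tested. WNT5A, a secreted signal, read 89.8, 129 and 72.6 in aPPs and 31.1, 27.6 and 46.5 in pPPs (1.13 higher, SE 0.21, adjusted p = 0.00962) and fell by 1.40 in aPP culture (SE 0.24, adjusted p = 0.00374). The first call ended without aPP set 2 (0.0506) or pPP set 2 (0.0713) and the second without cultured aPP set 2 (0.0841). Without normalization both WNT5A calls ended as well (adjusted p of 0.986 and 0.281 by limma). WNT3A, another signal of the WNT family, read 7.49, 41.6 and 45.4 in aPPs and 0.830 and 4.54 after culture, a fall of 1.23 (SE 0.33, adjusted p = 0.0472). This call ended under the replicate block of numbered sets (-1.07, adjusted p = 0.0787) and in 9 of 15 alternatives, including the loss of aPP set 2 or 3 or of either cultured aPP array (0.133 to 0.359). CDX4, a direct activator of posterior HOX genes in mouse and zebrafish, rose in pPP culture from 0.450, 1.02 and 0.360 to 35.6 and 22.0 (1.41, SE 0.30, adjusted p = 0.0145, and 0.229 without cultured pPP set 1). The rise was not from a level shared by the uncultured groups, since CDX4 read 2.08, 34.3 and 17.0 in aPPs. That was 0.90 above pPPs and did not pass (adjusted p = 0.125 by limma). Cultured aPPs read 8.86 and 10.9. FGF8, FGF4, FGF3, CDX2 and WNT8A had no Present call on the probe set used, although that of CDX2 read 18.4, 53.3 and 63.9 in aPPs. In the other groups it read 10.8, 19.6 and 2.73 (pPPs), 2.68 and 2.17 (cultured aPPs) and 32.6 and 10.7 (cultured pPPs).

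The genes of retinoic acid moved in both directions, with 12 tested of 20 listed. In aPPs against pPPs, 4 of the 12 were higher and 1 lower, where 1.89% of all tested probe sets passed. RARB, a receptor gene that retinoic acid induces, was higher by 1.28 (adjusted p = 0.00218), as was TSHZ3 (1.23, adjusted p = 0.00159). The call of RARB ended in 1 of 17 alternatives, that without normalization. RDH10, which makes retinal (1.02, adjusted p = 0.0264), and DHRS3 (1.00, adjusted p = 0.0380) passed less firmly, since their calls ended in 8 and 9 of 17 alternatives, among them no filter on calls (0.0661 and 0.0767), no intensity trend (0.0752 and 0.0544) and the loss of pPP set 2 (0.121 and 0.231). RDH10 also ended without aPP set 1, aPP set 3 or pPP set 3 (0.0706 to 0.129), and DHRS3 without aPP set 2, aPP set 3 or pPP set 1 (0.0902 to 0.183). CYP26A1, an enzyme that breaks retinoic acid down, was lower (-0.97, adjusted p = 0.0113), and was named after its values were seen. In aPP culture, where 3.71% of all passed, 3 of 12 fell, namely CYP26A1 (-2.58), CYP26C1 (-2.23) and RARB (-1.06, adjusted p of 0.114 and 0.192 without cultured aPP set 1 or 2). In pPP culture, where 3.93% of all passed, CYP26A1 fell by 0.89, which ended in 6 of 16 alternatives, among them without pPP set 1 or 2 (0.0819 and 0.114) and without cultured pPP set 1 (0.306). Cultured aPPs were below cultured pPPs in CYP26C1 (-2.91) and CYP26A1 (-2.66), 2 of 12 where 0.232% of all passed. Without normalization both of these calls ended (adjusted p of 0.0794 and 0.154 by limma). So did those of CYP26C1 (0.0663) and RARB (0.924) in aPP culture. The median of the 12 was 0.30 in aPPs against pPPs, and -0.35 in aPP culture, against -0.02 and -0.00 for all tested probe sets.

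Of 35 listed Trithorax and Polycomb genes, whose proteins keep HOX genes active or silent, 17 were tested and none passed in any of the 5 comparisons by limma, where 0.0139% to 3.93% of all probe sets passed. At an unadjusted p under 0.05 there were 0 to 2 of 17 in each, where 6.18% to 18.1% of all probe sets lay. Of 14 other homeobox genes of the ANTP class, the class to which HOX genes belong, 6 were tested. EN1, with 1 Present call, was not tested, though it read 81.6 and 75.7 in cultured pPPs and 2.34, 1.62 and 2.48 in pPPs. GBX2 and NKX6-2, which pattern hindbrain and neural tube, were lower in aPPs, by 0.99 (adjusted p = 0.0166) and 1.09 (adjusted p = 0.0253), and GBX2 was also lower in cultured aPPs than in cultured pPPs, by 1.38 (adjusted p = 0.0298). The call of NKX6-2 ended in 8 of 16 alternatives, among them an offset of 1 (0.0831), no filter (0.0808) and the loss of aPP set 2, aPP set 3 or pPP set 2 (0.0521 to 0.125). The calls of GBX2 ended in 4 of 17 and 6 of 15, including the loss of aPP set 2, pPP set 1 or pPP set 3 (0.0504 to 0.0847) and of any cultured array (0.0630 to 0.588).

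**Figure D4:**
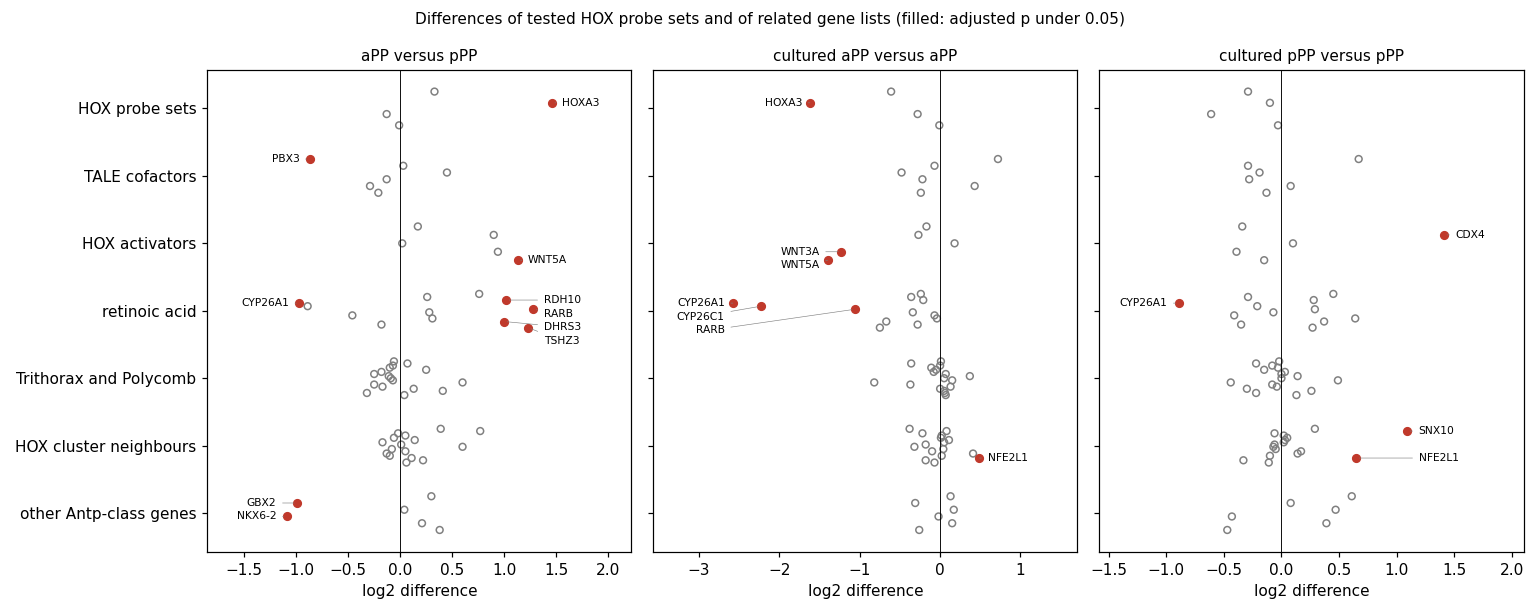
Differences of log2(signal + 16) for the 4 tested HOX probe sets and for tested genes of related lists in aPP versus pPP and in culture of aPPs and of pPPs; each point is 1 probe set, filled and named where the adjusted p is under 0.05. HOXA3 is the only HOX point that is filled, at 1.46 and -1.62, and no Trithorax or Polycomb gene is filled.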

How the data were processed

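The authors labelled RNA with NuGEN Ovation reagents and calculated MAS5 signals and detection calls. The deposited signals are linear intensity values in arbitrary units, with array medians of 6.2 to 21.3, and the deposited calls are Present, Marginal or Absent. Sources used here name no MAS5 version. The 96 control probe sets were left out, signals were quantile normalized over 10 arrays, and log2 was taken after 16 was added. Of 38439 probe sets, 21591 Present on at least 2 of 8 arrays were tested with limma 3.58.1 (R 4.3.3) in 1 model of 4 group means, with Benjamini-Hochberg adjustment. The calls of 2 arrays share a column name and were not used, and these are among 12 columns of per-sample values that were left out. The number of arrays limits the precision.

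The HOX genes, gene lists and tests were chosen with earlier results of these data known. Probe sets assigned to a HOX gene only by the array's text are not reported here. Every HOX gene was to be named, with values where it had a Present call, and up to 4 genes past the threshold with the largest difference from each list. For list genes with several probe sets, 1 was used, the tested one with the highest mean signal, or the brightest where none was tested. Departures from the group means correlated at 0.439, 0.182 and 0.226 between aPPs and pPPs of the same set number. Between unlike set numbers they correlated at -0.277 to 0.0315. What sets of the same number share is not stated, and the main fit and the permutation test did not use the set number. The procedure was tested on simulated data. Alternatives were other offsets, normalizations and filters, the set number as a replicate block, and each array left out. Figures were drawn with matplotlib 3.10.9.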

Additional observations from a re-analysis of the deposited data

How the results depend on the processing

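With the replicate block, the HOXA3 difference in pPP culture turned from -0.10 to 0.04, and the block ended no HOX call and, among the list genes named, that of WNT3A in aPP culture, while the count of all probe sets that passed in aPPs against pPPs was 569 instead of 408 (251 with no filter on calls, 58 without normalization). Leaving out 1 array at a time gave -0.36 to 0.17 for HOXA3 in pPP culture and -0.30 to 0.19 for cultured aPPs against cultured pPPs. The number of HOX probe sets that passed in aPPs against pPPs was 0 to 1 when 1 array was left out (0 without aPP set 2 or pPP set 2), and in aPP culture also 0 to 1 (0 without either cultured aPP array). It was 0 in both with an offset of 1. Counting HOX probe sets as detected by a mean signal above the array median gave 1 in place of 14. Over all alternatives, the adjusted p of HOXA3 was 0.000670 to 0.0781 in aPPs against pPPs and 0.000414 to 0.110 in aPP culture. For 32 values of single genes, 515 alternatives were run, of which 422 kept direction and side of the threshold, 89 no longer passed and 4 changed sign, all 4 for HOXA3 differences that had not passed. The causes were not tested. Dim signals limit all HOX values, least those of HOXA3 in aPPs, and so also the pPP and cultured sides of both HOXA3 differences. Calls from 1 cultured array per group limit what can be said of detection in culture.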
